A study of Equus caballus with 45 samples.

Results

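Cultured equine synoviocytes were compared after exposure to medium conditioned by STING-activated mesenchymal stromal cells (STING-MSC-CM) and to medium conditioned by TLR3-activated cells (TLR-MSC-CM). The comparison uses 6 RNA libraries of the 45 in the series and of the 11 from synoviocytes, chosen by their labels as the synoviocyte libraries of either medium. Each medium is represented by 3 libraries, whose labels carry the names PC, ORC and AG1 under cell line, 1 library of each name per medium. The names are read here as the donor of the MSC that made the medium, because the responding synoviocytes came from 1 horse and the MSC from several. The labels do not say so: the libraries without any MSC medium also carry PC or ORC, and of these names the MSC libraries of the series carry PC alone. All values given by donor, and the pairing of the libraries, rest on that reading. Bone marrow MSC had been activated for 2 h with poly I:C, a double-stranded RNA mimic that TLR3 senses, or with 2′3′-cGAMP, the cyclic dinucleotide that activates STING, and were washed before the medium was conditioned. The sample labels give both agonists at 10 ng/mL and the series' design text at 10 µg/mL, and the difference was not resolved here. All synoviocytes of both groups, and of the resting MSC-CM group that shared the fit, received IL-1β and TNF-α at 20 ng/mL each. By the protocol in the labels the cytokines and the medium were given for 24 h, and the cells were washed and cultured for 24 h more before RNA was taken. The study also describes a shorter exposure to the cytokines, washed off before the medium was added, and this difference was not resolved either. Single libraries of synoviocytes with the cytokines only and with no addition are given for orientation and entered no test.

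The synoviocytes came from the femoropatellar synovium of 1 horse and had been digested, expanded and frozen before use. On the reading above, the 3 libraries of a group differ by the MSC donor of the medium and by the culture well, not by the horse that gave the responding cells, and p-values measure the spread between these wells and media.

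Synovial fibroblasts line the joint, make hyaluronan and matrix, and in osteoarthritis release cytokines, chemokines and matrix proteases when IL-1β and TNF-α drive NF-κB. TLR3 and STING both lead, through IRF3, to type I interferon, which binds its receptor on the cell surface and switches on a broad set of antiviral genes. MSC activated by either route can release interferon and interferon-induced proteins, and the response of a recipient cell to such a medium can be read from the same antiviral genes. The question addressed by this comparison was whether the same responding cells differ in gene expression according to the route by which the MSC had been activated.

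Between 24650628 and 45928986 reads were counted on genes in the 6 libraries, and a count of 3, taken as the floor, was 0.0653 to 0.122 counts per 1000000 counted reads (CPM). Floors cover counting error only, since reads carry no molecular identifiers. The 15 markers of synovial fibroblasts in the table summed to 99265 to 114078 CPM in the 6 libraries, with COL1A1, COL3A1 and COL1A2 holding most of the counts and the lining marker PDPN at 83.6 to 97.6 CPM. The 17 macrophage markers summed to 13.6 to 15.9 CPM, with AIF1, C1QB and C1QC at 0 in all 6, and the T and B cell markers to 3.47 to 5.76 CPM, with CD3D, CD3G, CD2 and MS4A1 at 0. The endothelial markers summed to 90.7 to 101 CPM, nearly all from PECAM1, while TIE1 and CLDN5 were at 0. In bulk RNA, fewer cells of a type and less RNA per cell cannot be told apart.

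The libraries of donor ORC stood apart. In a principal component analysis of the 9 libraries with MSC-CM, 24.6% of the variance lay on the first component, which ran from -38.5 in resting ORC to 35.9 in TLR ORC, with STING ORC at 18.2 and the other 6 libraries between -11.6 and 5.70. Counts of PC and AG1 libraries of the same medium differed from each other by a chi-square per gene of 6.36 to 9.49. Against PC and AG1 it was 29.6 and 30.2 for the TLR ORC library and 25.1 and 34.9 for the resting ORC library. For the STING ORC library it was 7.61 and 16.5. The results are therefore given by MSC donor, and those that rest on the TLR ORC library also without it.

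No gene differed between the media by edgeR's quasi-likelihood test. Of 14584 genes tested, 0 had an adjusted p-value under 0.05 (0.0% of genes tested), and the smallest adjusted p-value was 1.0. DESeq2 on the same libraries also gave 0. An unadjusted p-value under 0.05 was reached by 281 genes (1.93%) with edgeR and by 206 with DESeq2. Of the 281 genes, 138 (0.946%) were higher with STING-MSC-CM and 143 (0.981%) were lower. With the MSC donor as a block on the 6 libraries, the unadjusted p-value of 530 genes was under 0.05 and the adjusted one of 0 genes. Over all genes tested, 7303 (50.1%) had a log2 fold change above 0, 1681 (11.5%) were higher with STING-MSC-CM in all 3 donors and 1663 (11.4%) lower in all 3. All STING-MSC-CM libraries lay above all TLR-MSC-CM libraries for 547 genes (3.75%) and below them for 517 (3.54%). Here and below a log2 fold change is STING-MSC-CM minus TLR-MSC-CM, and a positive value means more RNA with STING-MSC-CM.

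Differences were small for genes with an appreciable level. Among the 11729 genes with a mean of at least 1 CPM, the median size of the log2 fold change was 0.0533, against a median standard error of 0.0973. For 11503 of these genes (98.1%) the 95% interval of the log2 fold change lay within 1 in either direction, so that a difference above 2-fold was outside the interval. Of the same genes 157 had an unadjusted p-value under 0.05, and 3 had a log2 fold change beyond 1 in either direction.

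**Figure D1:**
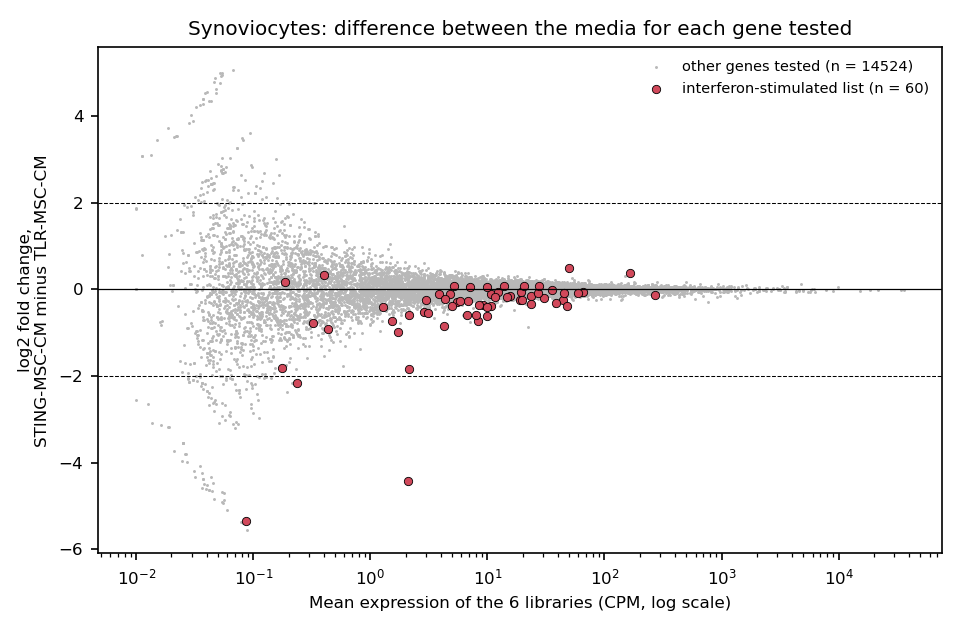
Log2 fold change between the media (vertical axis, STING-MSC-CM minus TLR-MSC-CM) against the mean expression of the 6 libraries (horizontal axis, CPM, log scale) for the 14584 genes tested. Points are genes, red points the 60 interferon-stimulated genes tested, and dashed lines a log2 fold change of 2 in either direction; the spread narrows with expression and most red points lie below 0.

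The donors did not contribute equally. For the genes with a mean of at least 1 CPM, the SD over genes of the difference in log2(CPM + 0.5) was 0.175 for the PC pair, 0.209 for ORC and 0.168 for AG1. In the PC pair, 3 of these genes were higher with STING-MSC-CM by more than 1 and 1 was lower, and in the AG1 pair 2 were higher and 0 lower. In the ORC pair 4 genes were higher by more than 1, among them CRB2 and NMB, and 20 were lower. Of those 20 genes, 12 were interferon-stimulated: BST2, CXCL10, DHX58, GBP5, HERC6, IFI44, IFI44L, IFIH1, IFIT3, ISG15, MX1 and USP18. The others included DDX60L and SLFN5, which belong to interferon-inducible families, CSF3, which encodes the granulocyte growth factor G-CSF, the inducible nitric oxide synthase NOS2 and the immediate early gene EGR1. These genes of the ORC pair are named here after their values were seen. CXCL10, IFIT3 and HERC6 reached a mean of 1 CPM only through the TLR ORC library, at 11.9, 8.81 and 5.34 CPM there. Their place among the 20 is thus partly set by the filter.

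As a list, interferon-stimulated genes were lower with STING-MSC-CM than with TLR-MSC-CM in the ORC pair alone. A list of 76 such genes was written, of which 63 were in the table and 60 were tested, and 10 of the 60 had a log2 fold change above 0. The median log2 fold change of the list was -0.25. By donor the median difference was 0.0443 for PC, -0.643 for ORC and 0.105 for AG1, and 22, 57 and 18 of the 60 genes were lower in these pairs. The 60 include APOL6 and CXCL11, which passed the count filter only through the TLR ORC library. Without the TLR ORC library the median was 0.10 and 45 of 58 genes were higher. An unadjusted p-value under 0.05 was reached by 2 of the 60 genes, TRIM25 and IRF1, both lower (0.981% of all genes were), and by 2 of 58 without the TLR ORC library, both higher (1.52% of all genes were in that fit). With PC and AG1 medium the list thus differed little between the media, and its direction over all donors was set by 1 library.

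That library was the one with TLR-MSC-CM of donor ORC. APOL6 and CXCL11 passed the minimum of 10 counts only through it and are left out of the following counts. Of the other 58 interferon-stimulated genes, 50 had their highest value of the 6 libraries there, against 24.6% of all genes that passed without it, and 13 were more than 2-fold above each of the other 5 libraries. Among all genes with a mean of at least 1 CPM over the other 5 libraries, 11 exceeded each of these more than 2-fold in TLR ORC, 8 of them of the interferon-stimulated list, and 0 did so in any of the 5 when each was set against the rest. Against the resting MSC-CM library of the same donor, the median difference of the list with TLR-MSC-CM was 0.0285 for PC, 0.858 for ORC and 0.00591 for AG1. With STING-MSC-CM it was 0.0668, 0.116 and 0.102.

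Among the antiviral effectors, 38 genes were tested, 8 had a log2 fold change above 0 and the median was -0.21, or 0.0955 without the TLR ORC library. MX1, a GTPase that blocks viral replication, was at 5.16 CPM with PC, 17.7 with ORC and 6.14 with AG1 TLR-MSC-CM, and at 4.65, 8.26 and 6.12 CPM with STING-MSC-CM in the same order. OAS2, which makes the 2′-5′ oligoadenylates that activate RNase L, was at 38.8, 92.8 and 30.4 CPM with TLR-MSC-CM and at 37.4, 47.6 and 38.8 CPM with STING-MSC-CM. IFIT3, which takes part in binding foreign RNA, was at 0.659, 8.81 and 0.648 CPM with TLR-MSC-CM and at 0.644, 1.33 and 0.813 CPM with STING-MSC-CM. In each of these genes the ORC library was the highest with either medium, the gap was wider with TLR-MSC-CM, and the groups overlapped. The log2 fold changes were -0.59 (SE 0.50) for MX1, -0.38 (SE 0.41) for OAS2 and -1.84 (SE 1.13) for IFIT3, none of which passed the test. GBP5, a guanylate-binding GTPase, was at 7.31, 21.5 and 7.40 CPM with TLR-MSC-CM and at 7.55, 7.74 and 7.99 CPM with STING-MSC-CM, so that only 1 of the 6 libraries stood out. RSAD2, which encodes viperin, did not show this pattern, at 12.4, 15.6 and 12.8 CPM with TLR-MSC-CM and 13.2, 15.8 and 14.0 CPM with STING-MSC-CM. The IFIT and GBP families hold close relatives, and how reads shared between such copies were counted is not given in the sources used here.

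Of the genes for ubiquitin-like conjugation and TRIM proteins, 9 were tested and 1 was higher, with a median of -0.28, or 0.11 without the TLR ORC library. ISG15, the ubiquitin-like modifier that is also secreted, was at 4.19, 21.4 and 5.49 CPM with TLR-MSC-CM and at 3.97, 8.87 and 5.58 CPM with STING-MSC-CM. Its log2 fold change was -0.74 (SE 0.67). TRIM25, the ubiquitin ligase that activates RIG-I, was at 9, 14.6 and 10.4 CPM with TLR-MSC-CM and at 8.77, 9.23 and 7.65 CPM with STING-MSC-CM, lower in all 3 pairs, with a log2 fold change of -0.40 (SE 0.15, unadjusted p = 0.017). Without the TLR ORC library it was -0.18.

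All 4 sensors of viral RNA that were tested, DDX58 (RIG-I), IFIH1 (MDA5), DHX58 (LGP2) and TLR3 itself, were lower in the ORC pair, and their median log2 fold change was -0.48. IFIH1 was at 1.98, 7.54 and 1.64 CPM with TLR-MSC-CM and at 2.40, 2.54 and 2.55 CPM with STING-MSC-CM, higher with STING-MSC-CM for PC and AG1 and lower for ORC. DDX58 was at 22.4, 33.4 and 19.3 CPM against 23.1, 22.2 and 22.1 CPM.

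The transcription factors IRF7 and IRF1 and the feedback enzyme USP18 were each highest in the TLR ORC library among the 6. IRF7, which amplifies interferon induction, was at 7.31, 20.1 and 9.34 CPM against 9.55, 10.1 and 8.20 CPM. IRF1 was at 8.41, 12.8 and 9.80 CPM with TLR-MSC-CM and at 7.76, 9.11 and 7.25 CPM with STING-MSC-CM, lower in all 3 pairs, and its groups overlapped (log2 fold change -0.36, SE 0.16, unadjusted p = 0.0356). IRF1 was at -0.18 without the TLR ORC library, with an unadjusted p-value of 0.249. USP18, which removes ISG15 from proteins and damps interferon signalling, was at 1.38, 4.25 and 2.17 CPM against 2.08, 1.37 and 1.58 CPM.

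The chemokine CXCL10, which draws T cells through CXCR3, had 0, 320 and 0 counts with TLR-MSC-CM of PC, ORC and AG1 and 0, 8 and 9 counts with STING-MSC-CM, and 0, 29 and 0 counts with resting MSC-CM. CXCL11, a ligand of the same receptor, had 14 counts in the TLR ORC library and 0 in each of the other 8 libraries with MSC-CM. Both chemokines were thus counted mainly in cells given medium of 1 donor. TNFSF10, the death receptor ligand TRAIL, was at 3.62, 7.43 and 2.90 CPM with TLR-MSC-CM and at 4.58, 3.87 and 3.48 CPM with STING-MSC-CM.

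**Figure D2:**
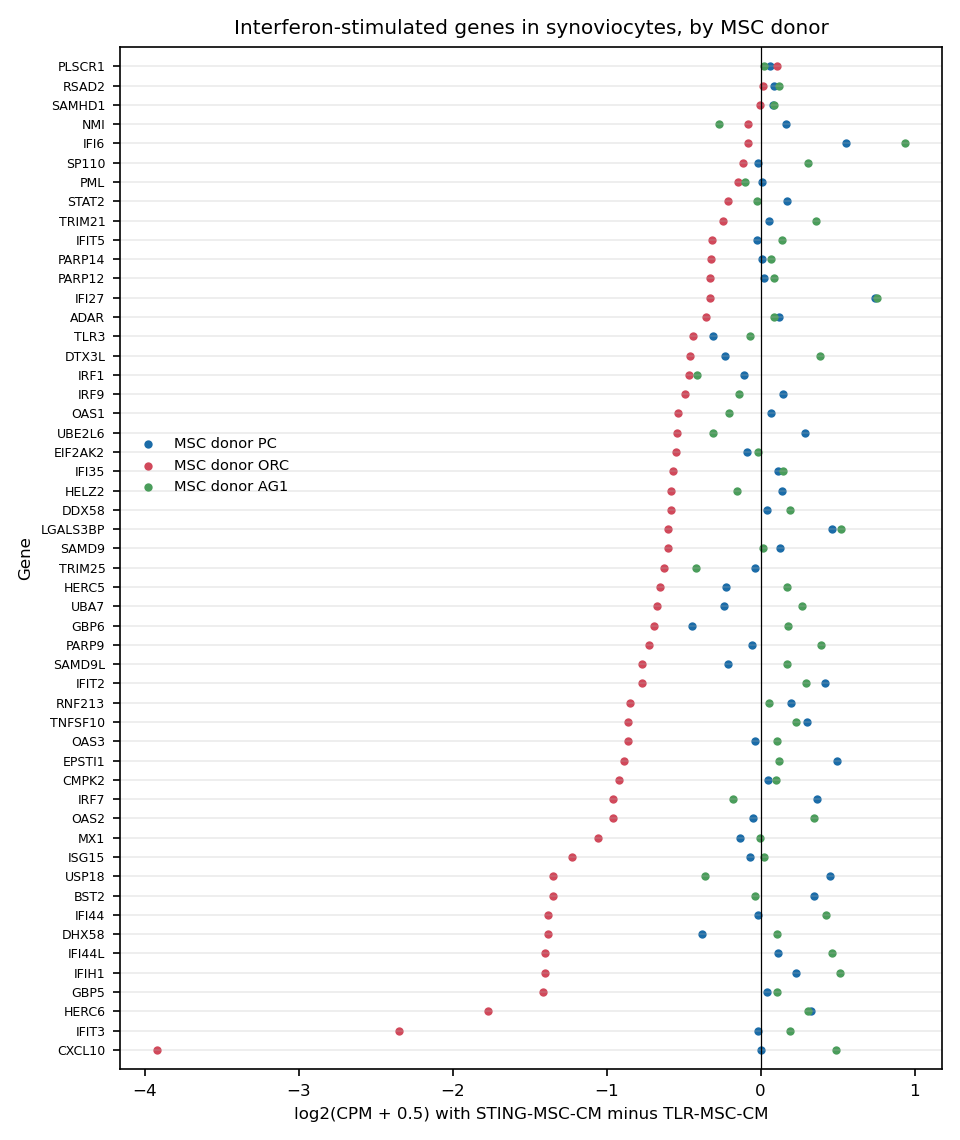
Difference in log2(CPM + 0.5) between STING-MSC-CM and TLR-MSC-CM (horizontal axis) for 52 of the 53 interferon-stimulated genes with a mean of at least 1 CPM (vertical axis), ordered by the ORC pair. Each point is 1 pair of libraries. The lowest red ORC points are CXCL10 at -3.92 and IFIT3 at -2.35, while blue PC and green AG1 points stay within 1 of 0. CXCL10, IFIT3 and HERC6 reached a mean of 1 CPM only through the TLR ORC library.

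A few members of the list lay well above its medians of 0.0443 and 0.105 in the PC and AG1 pairs, and they are named after their values were seen. IFI6, an interferon-induced mitochondrial protein, was at 36.1, 50.5 and 38.0 CPM with TLR-MSC-CM of PC, ORC and AG1 and at 53.1, 47.6 and 73.1 CPM with STING-MSC-CM. IFI27 was at 111, 192 and 133 CPM with TLR-MSC-CM and at 187, 152 and 225 CPM with STING-MSC-CM. LGALS3BP, the secreted galectin-3-binding glycoprotein, was at 14.1, 30.7 and 16.2 CPM against 19.7, 20.0 and 23.4 CPM. In all 3 genes PC and AG1 were higher with STING-MSC-CM and ORC was lower, the same signs as the list medians, and the groups overlapped. LGALS3BP was highest of the 6 libraries in TLR ORC, as most of the list was. The log2 fold change over all donors was 0.49 (SE 0.28) for IFI6, 0.38 (SE 0.32) for IFI27 and 0.07 (SE 0.34) for LGALS3BP. Without the 3 libraries of donor ORC it was 0.78, 0.76 and 0.52, with unadjusted p-values of 0.000641, 0.004005 and 6.93e-05. The adjusted p-values by edgeR's quasi-likelihood test were 1.0 for IFI6 and IFI27 and 0.494 for LGALS3BP. The 3 genes were chosen by their PC and AG1 values, and the fit without donor ORC rests on the same values. Its p-values for them are therefore no separate evidence. With resting MSC-CM IFI6 and IFI27 were also highest in the ORC library, IFI6 at 55.9 CPM and IFI27 at 192 CPM, against 29.9 and 36.8 CPM and 99.4 and 126 CPM with PC and AG1.

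Antigen presentation genes, several of which interferon also induces, had a median near 0. Of 20 tested, 7 had a log2 fold change above 0, and the median log2 fold change was -0.03. TAP1, the peptide transporter that loads class I molecules, was at 51.9, 52.8 and 53.0 CPM with TLR-MSC-CM and at 49.5, 43.2 and 48.1 CPM with STING-MSC-CM, so that the groups did not overlap. Its log2 fold change was -0.16 (SE 0.07, unadjusted p = 0.0298). B2M, the class I light chain, was at 303, 384 and 279 CPM against 320, 321 and 340 CPM, again highest in the TLR ORC library.

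No gene of the cytokines and their receptors passed the test. Of 34 genes tested, 10 had a log2 fold change above 0, the median was -0.05, and 2, IL18 and IL1R2, had an unadjusted p-value under 0.05, both lower, where 0.981% of all genes were. IL6 was at 1160, 1242 and 1012 CPM with TLR-MSC-CM and at 1206, 1152 and 987 CPM with STING-MSC-CM, against 260 CPM in the library with no addition and 1353 CPM with the cytokines only. Its log2 fold change was -0.03 with a 95% interval from -0.44 to 0.39. IL18, a cytokine of the IL-1 family, was at 3.10, 2.13 and 2.52 CPM with TLR-MSC-CM and at 2.22, 1.29 and 1.81 CPM with STING-MSC-CM, lower in all 3 pairs, although the groups overlapped (log2 fold change -0.55, SE 0.24, unadjusted p = 0.038). IL1R2, the decoy receptor that binds IL-1 without signalling, had 7, 14 and 9 counts with TLR-MSC-CM and 0, 1 and 5 with STING-MSC-CM (unadjusted p = 0.0182), against 0, 0 and 2 with resting MSC-CM. The groups did not overlap, and the level was under 1 CPM throughout. IL1R1, the signalling receptor, was at 54.1, 71.1 and 53.9 CPM against 55, 59.9 and 53.9 CPM. CSF3 was at 3.78, 4.44 and 2.71 CPM with TLR-MSC-CM and at 4.01, 1.89 and 3.14 CPM with STING-MSC-CM.

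Chemokines gave 4 of 14 genes above 0 and a median of -0.07. CXCL6, a neutrophil chemokine with the highest counts of the list, was at 6867, 6698 and 5719 CPM with TLR-MSC-CM and at 6848, 6141 and 5419 CPM with STING-MSC-CM. CXCL1 was at 411, 429 and 356 CPM against 427, 371 and 324 CPM, and CXCL8 at 15.4, 14.1 and 13.1 CPM against 16.9, 12.5 and 11 CPM. CCL2, which draws monocytes, was at 206, 199 and 180 CPM against 200, 171 and 176 CPM. All 4 overlapped between the media. The single library with no addition held 14.6 CPM of CXCL1 and 0.568 CPM of CXCL8, below each of the 6 libraries. The NF-κB response list had 5 of 23 genes above 0 and a median of -0.05, with SOD2 at 1245, 1984 and 1158 CPM against 1237, 1481 and 1068 CPM and ICAM1 at 287, 261 and 308 CPM against 271, 244 and 278 CPM.

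Of 35 matrix proteases and inhibitors tested, 13 had a log2 fold change above 0 and the median was -0.02. By donor the median difference was 0.01 for PC, -0.113 for ORC and -0.0436 for AG1, with 15, 22 and 21 genes lower. MMP13, the main collagenase of osteoarthritic cartilage, was at 644, 1261 and 618 CPM with TLR-MSC-CM of PC, ORC and AG1, at 616, 863 and 562 CPM with STING-MSC-CM and at 469, 180 and 485 CPM with resting MSC-CM. Its log2 fold change was -0.30 (SE 0.47), and the ORC libraries were both the highest and the lowest. MMP1, another collagenase, was at 5721, 6878 and 5114 CPM against 5725, 6586 and 5163 CPM. The aggrecanase ADAMTS5 was at 350, 444 and 343 CPM against 347, 357 and 340 CPM. ADAMTS9 was the protease with the smallest p, at 58.5, 52.1 and 55.2 CPM with TLR-MSC-CM and at 51.5, 46.5 and 50.4 CPM with STING-MSC-CM. Its groups did not overlap (log2 fold change -0.16, SE 0.07, unadjusted p = 0.0356). The protease inhibitor TIMP1 went the other way, at 484, 430 and 490 CPM against 529, 524 and 521 CPM, also without overlap (log2 fold change 0.17, SE 0.08, unadjusted p = 0.0541).

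Collagens and other matrix genes gave 16 of 44 genes above 0 and a median of -0.01. COL1A1 was at 35786, 29364 and 39266 CPM with TLR-MSC-CM and at 33845, 32099 and 36356 CPM with STING-MSC-CM. COL3A1 was at 36444, 36057 and 36275 CPM against 35243, 36747 and 35001 CPM. The 95% intervals of their log2 fold changes ran from -0.25 to 0.19 and from -0.21 to 0.17. Of the hyaluronan genes, the synthase HAS2 was at 6.39, 4.74 and 5.83 CPM against 5.37, 3.91 and 5.98 CPM, and the hyaluronan-degrading CEMIP at 2550, 3104 and 2586 CPM against 2787, 2994 and 2632 CPM. PTGS2, the inducible cyclooxygenase of prostaglandin synthesis, was at 554, 682 and 431 CPM against 600, 495 and 467 CPM, and was higher for PC and AG1 and lower for ORC. In the prostaglandin list 9 of 17 genes were above 0 and the median was 0.00483.

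Of 15 complement genes tested, 5 had a log2 fold change above 0, and the median was -0.06, or 0.14 without the TLR ORC library. By donor the median difference was 0.089 for PC, -0.0926 for ORC and -0.0854 for AG1, with 4, 10 and 12 genes lower. C1R and C1S, the proteases of the C1 complex, were at 122, 211 and 125 CPM and at 96.4, 170 and 93.1 CPM with TLR-MSC-CM, and at 127, 166 and 116 CPM and 95.6, 121 and 92.7 CPM with STING-MSC-CM. With resting MSC-CM of ORC they were at 47.2 and 37.6 CPM, the lowest of the 9 libraries. CFB, the factor B of the alternative pathway, was at 10.5, 17.7 and 10.6 CPM against 11.9, 13.1 and 10.2 CPM.

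Some signalling genes had 1 direction in all 3 pairs, as 11.5% (higher) and 11.4% (lower) of all genes did. Among 22 Wnt ligands and antagonists tested, 2 were higher and 1 was lower in all 3 pairs. Among 33 TGF-β and contractile genes, 2 were higher and 5 lower. DUSP5, a nuclear phosphatase that switches off ERK, was at 2.72, 1.68 and 2.36 CPM with TLR-MSC-CM and at 1.61, 1.01 and 1.33 CPM with STING-MSC-CM. All STING-MSC-CM values lay below all TLR-MSC-CM values, and the log2 fold change was -0.78 (SE 0.26, unadjusted p = 0.00713), or -0.95 without the TLR ORC library. In the list of immediate early genes and DUSP phosphatases, 9 of 30 genes were lower in all 3 pairs, against 11.4% of all genes, and the median was -0.08. EGR1 was at 45.0, 33.8 and 46.7 CPM against 44.3, 16.5 and 35.5 CPM, and FOS at 11.7, 6.90 and 9.53 CPM against 9.16, 5.56 and 9.03 CPM, with standard errors larger than their differences. NOTUM, a secreted enzyme that inactivates Wnt proteins, was at 14.4, 20.1 and 13.5 CPM with TLR-MSC-CM and at 18.7, 23.7 and 17.2 CPM with STING-MSC-CM. It was higher in all 3 pairs with overlapping groups (log2 fold change 0.31, SE 0.15, unadjusted p = 0.0544). WNT5A, a Wnt ligand that acts mainly outside the β-catenin route, was lower in all 3 pairs, at 29.6, 24.4 and 26.6 CPM against 26.5, 21.2 and 22.2 CPM. TGFBR1, the type I receptor of TGF-β, was at 62.6, 61.2 and 57.3 CPM against 56.4, 51 and 55 CPM without overlap (log2 fold change -0.16, SE 0.07, unadjusted p = 0.0476).

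**Figure D3:**
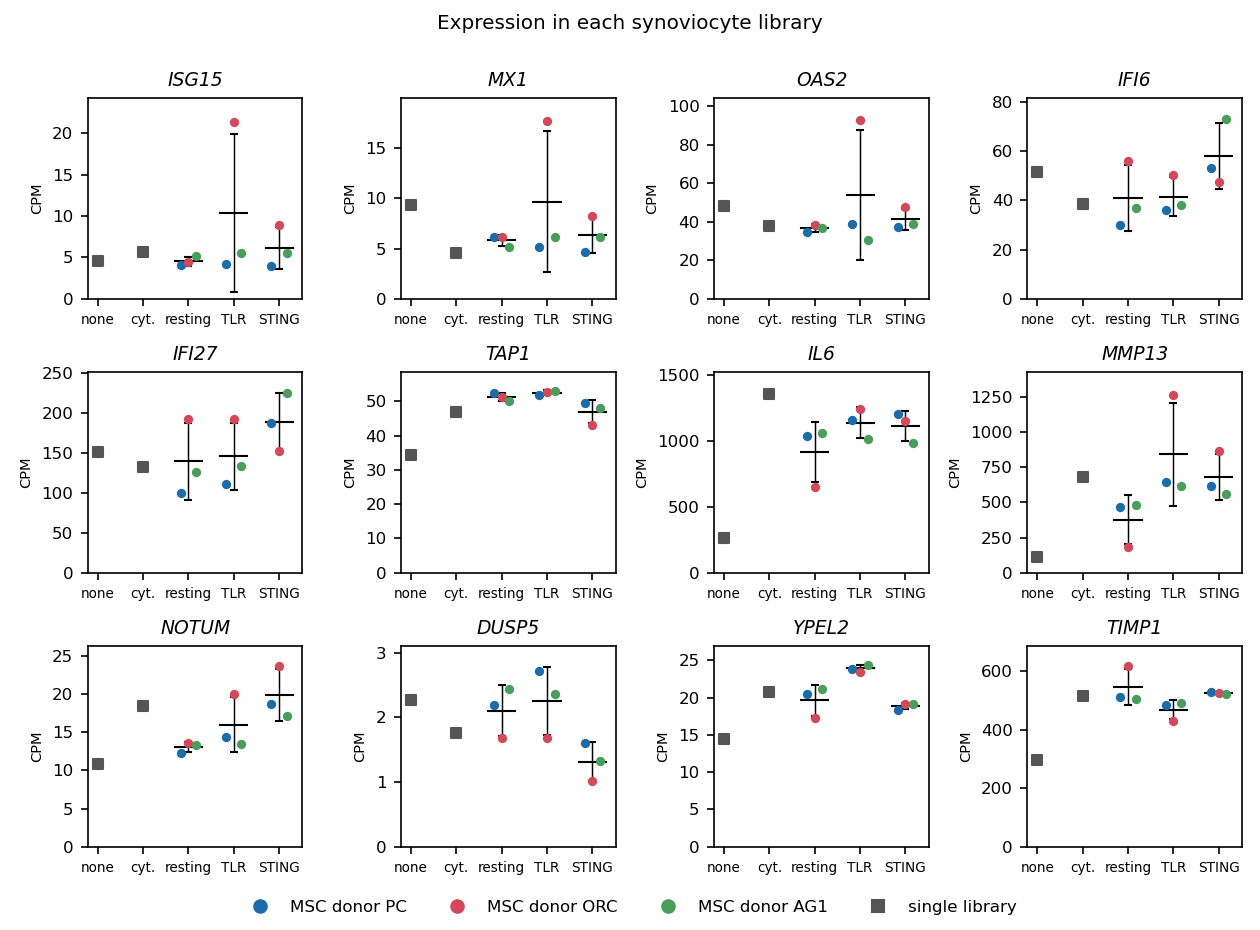
Expression (vertical axis, CPM, from 0) of 12 genes in each synoviocyte library with no addition (none), the cytokines only (cyt.) and resting, TLR- or STING-MSC-CM. Points are libraries coloured by MSC donor, squares single libraries, and bars the mean ± SD of 3 libraries; ISG15, MX1 and OAS2 have 1 high TLR ORC point, while DUSP5, YPEL2 and TAP1 lie lower and TIMP1 higher in each STING-MSC-CM library than in any TLR-MSC-CM library.

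Lists of housekeeping processes differed most in the ORC pair as well, in the direction opposite to interferon. Of 67 cytosolic ribosomal protein genes, 59 had a log2 fold change above 0, with a median of 0.0383. By donor the median difference was -0.0382 for PC, 0.158 for ORC and -0.00889 for AG1. Of 55 genes of mitosis 48 were above 0, with a median of 0.0599 and differences of -0.0276, 0.296 and -0.0172, and in the ORC pair all 55 were higher. DNA replication genes had medians of -0.0842, 0.163 and -0.0368 by donor. Without the TLR ORC library the medians of all 3 lists were below 0, at -0.0206 for ribosomal proteins, -0.0623 for mitosis and -0.12 for DNA replication, with 22 of 67, 8 of 55 and 6 of 45 genes higher. RPL3 showed the pattern in single values, at 847, 717 and 883 CPM with TLR-MSC-CM and at 781, 813 and 849 CPM with STING-MSC-CM, and so did the topoisomerase TOP2A, at 196, 151 and 192 CPM against 179, 168 and 193 CPM. The respiratory chain list differed in that its median stayed above 0, at 0.0429 and at 0.0382 without that library. By donor its median difference was 0.0198 for PC, 0.0976 for ORC and -0.000994 for AG1, again largest in the ORC pair. Of its 63 genes 18 were higher in all 3 pairs, against 11.5% of all genes. No member of these 4 lists had an unadjusted p-value under 0.05.

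**Figure D4:**
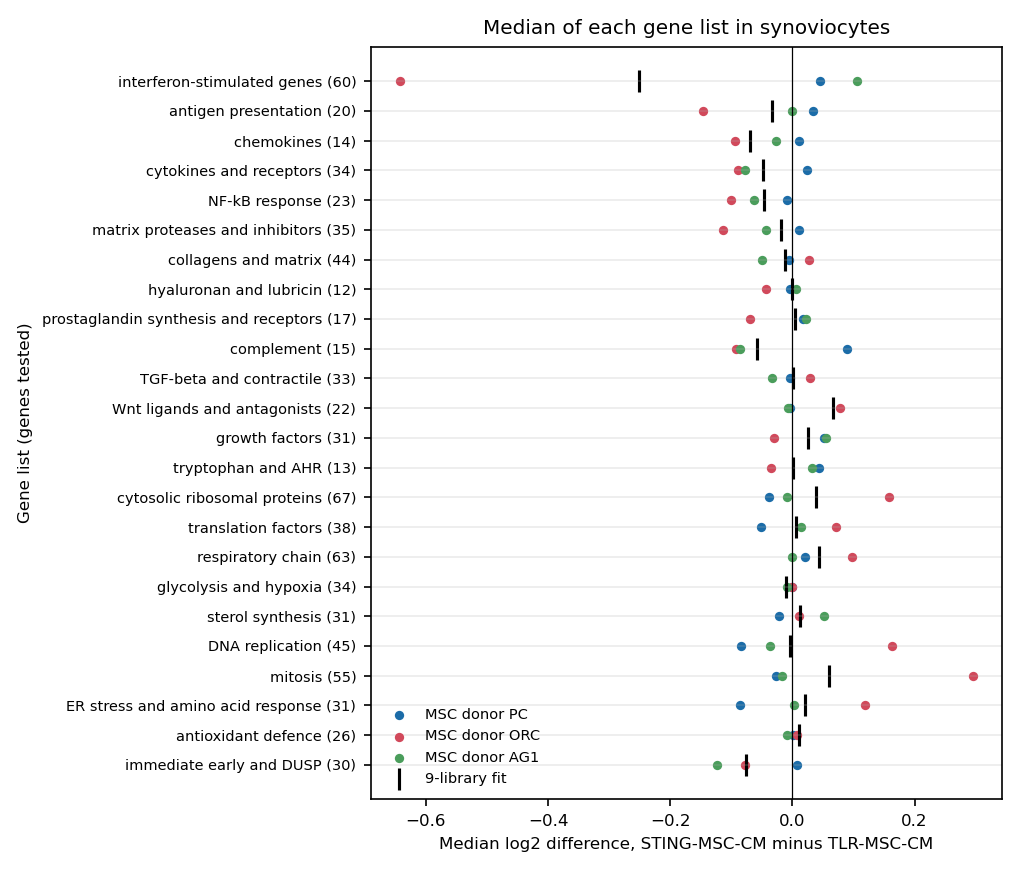
Median log2 difference between STING-MSC-CM and TLR-MSC-CM (horizontal axis) over the genes of each list (vertical axis, number tested in parentheses). Points are the 3 donor pairs and black bars the median of the 9-library fit; the red ORC point is farthest from 0 for interferon-stimulated genes (-0.643) and on the other side for mitosis (0.296).

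The genes with the smallest p, with a mean count of at least 50 and 1 direction in all 3 pairs, were chosen by these values and are given as a description. Of the 12 that were lower with STING-MSC-CM, 11 did not overlap between the media, and their unadjusted p-values ran from 0.00138 to 0.0159. Over all genes tested, 3.54% lay apart in this direction. A choice by small p and 1 direction favours such genes, so this count is no separate evidence. YPEL2 led, at 23.9, 23.5 and 24.4 CPM with TLR-MSC-CM and at 18.4, 19.2 and 19.1 CPM with STING-MSC-CM, with a log2 fold change of -0.34 (SE 0.09). Its values with resting MSC-CM, 20.5, 17.3 and 21.2 CPM, lay closer to those with STING-MSC-CM. GPR153, an orphan receptor, was at 13.3, 15.7 and 14.8 CPM against 10.9, 11.3 and 11.8 CPM. CHSY1, a chondroitin sulfate synthase, was at 45.1, 44.4 and 39.6 CPM against 39.0, 34.9 and 37.6 CPM, and CCN4, a matricellular protein of the Wnt pathway, at 37.3, 40.6 and 35.8 CPM against 33.3, 32.1 and 33.1 CPM. SIRT6, a chromatin deacylase, was at 12.3, 13.1 and 12.2 CPM against 8.91, 11.8 and 9.30 CPM. The remaining genes of this direction were GABPB2, IRF2BP1, LETM2, MYLK3, RENBP, ROGDI and DUSP5.

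Of the 12 that were higher with STING-MSC-CM, 11 did not overlap and the unadjusted p-values ran from 0.00572 to 0.0152. Over all genes tested, 3.75% lay apart in this direction, and the same limit of the choice applies. GTPBP10, a GTPase of mitochondrial ribosome assembly, led, at 4.70, 4.74 and 5.03 CPM with TLR-MSC-CM and at 6.37, 6.21 and 6.5 CPM with STING-MSC-CM (log2 fold change 0.40, SE 0.13). HSPB1, a small heat shock protein, was at 61.8, 69.8 and 73.5 CPM against 77.4, 81.1 and 75.9 CPM. GPC3, a cell surface heparan sulfate proteoglycan, was at 21.1, 19.9 and 21.0 CPM against 22.9, 28.1 and 24.1 CPM. DNAJC15, a mitochondrial co-chaperone, was at 15.1, 15.7 and 16.4 CPM against 18.9, 17.5 and 19.1 CPM. The remaining genes were ADCY5, AIG1, CCDC15, DEPDC7, MCMDC2, MORN2, TCF19 and TTC13. Among the metabolic lists, TM7SF2, a reductase of sterol synthesis, was at 5.42, 5.41 and 5.15 CPM against 6.65, 7.66 and 6.01 CPM, and PFKFB4, a regulator of glycolysis, at 2.13, 1.98 and 2.33 CPM against 2.79, 3.10 and 3.09 CPM. Both were higher in every pair without overlap, with unadjusted p-values of 0.0264 and 0.0189.

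The thresholds set by the study (p up to 0.05 without adjustment, and a fold change of 2 or more on the log2 scale, up or down) were met by 70 genes (0.48% of genes tested), 36 higher and 34 lower. These genes were at the limit of detection. Their mean count over the 6 libraries had a median of 2.08 and a maximum of 6.67. In 64 of the 70 genes 1 group had no library above 3 counts, in 3 genes both groups were there, and 3 genes, IL1R2, HECW1 and TMPRSS7, had both groups above. Of the 70 genes, 45 had the same direction in all 3 pairs. With the MSC donor as a block, 46 genes met the thresholds on the 9 libraries and 34 on the 6 libraries. With a prior count of 2 in place of edgeR's default, 0 genes did. SYCE3, a protein of meiotic chromosome pairing, had 1, 1 and 1 counts with TLR-MSC-CM of PC, ORC and AG1 and 4, 11 and 11 with STING-MSC-CM, and ERBB4, a receptor of neuregulins, 0, 1 and 2 counts against 3, 7 and 9. HECW1, a ubiquitin ligase, had 13, 4 and 16 counts against 0, 4 and 3, and CXXC4, an inhibitor of Wnt signalling, 8, 7 and 4 counts against 0, 2 and 0. In the TLR-MSC-CM libraries the macrophage mannose receptor MRC1 had 1, 0 and 0 counts and in the STING-MSC-CM libraries 7, 6 and 2.

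Several other genes that the study's text names for synoviocytes were also sparse, unlike IFIT3, which had 236 counts in the TLR ORC library. PLXNC1, the plexin receptor C1, had 8, 5 and 3 counts with TLR-MSC-CM and 3, 2 and 4 with STING-MSC-CM, and 0 in each library with resting MSC-CM (log2 fold change -0.77, SE 0.81). APOL6, a member of the interferon-inducible apolipoprotein L family, had 1, 21 and 1 counts with TLR-MSC-CM and 2, 1 and 4 with STING-MSC-CM. PRKCZ, an atypical protein kinase C, had 4, 8 and 2 counts against 0, 4 and 3, and CYFIP2, a regulator of actin, 8, 1 and 3 against 2, 4 and 6. PKHD1L1 had 0, 7 and 1 counts against 5, 2 and 4, and the growth factor FGF16 13, 1 and 1 against 1, 0 and 4. The actin-like gene ACTL10 had 1, 3 and 4 counts against 12, 6 and 9, the groups not overlapping (unadjusted p = 0.0422). Of these genes ACTL10 alone had an unadjusted p-value under 0.05. With resting MSC-CM, APOL6, PRKCZ, CYFIP2, PKHD1L1 and FGF16 had 0 counts in all 3 libraries, which allows at most 3 counts in each. The study named these genes, PLXNC1 and IL1R2 from its comparisons with resting MSC-CM. Low counts in the resting libraries partly follow from that choice and are no separate evidence.

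Synoviocyte levels of the genes for proteins predicted to be secreted by activated MSC were also read. SERPING1, the C1 inhibitor, was at 27.1, 40.6 and 28.2 CPM with TLR-MSC-CM and at 30.1, 40.4 and 32.6 CPM with STING-MSC-CM. SRGN, the proteoglycan serglycin, was at 117, 195 and 99.7 CPM against 131, 175 and 107 CPM, and ITGBL1 at 131, 152 and 132 CPM against 134, 161 and 137 CPM. All 3 overlapped. IL4I1, a secreted oxidase of phenylalanine and tryptophan, was at 5.49, 7.05 and 6.4 CPM against 7.23, 7.09 and 7.18 CPM, without overlap and with an unadjusted p-value of 0.196.

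Media of the same MSC donors had been given to chondrocytes and macrophages. By the labels the macrophages received the cytokines at 10 ng/mL. For chondrocytes no dose could be read from the labels, and the study describes their stimulation as that of the synoviocytes. If the label dose holds, cell type and cytokine dose cannot be told apart for macrophages. The difference of the effect between cell types was tested by an interaction term over 27 libraries. Between synoviocytes and chondrocytes 0 of 16584 genes had an adjusted p-value under 0.05 by edgeR's quasi-likelihood test (0.0%) and 279 (1.68%) an unadjusted one. Of the 63 interferon-stimulated genes in that fit, 27 had an unadjusted p-value under 0.05, all with the lower difference in synoviocytes, and the median of the difference was -0.96. Without the synoviocyte TLR ORC library these were 14 genes and -0.57. No chondrocyte library was left out of this test, so how far it rests on a single chondrocyte library was not tested. In synoviocytes the list had medians of 0.0443, -0.643 and 0.105 for PC, ORC and AG1, and in chondrocytes 0.0372, 0.114 and 1.13. In the comparison of the media within chondrocytes, 17 of the 59 listed genes tested had an unadjusted p-value under 0.05, all higher with STING-MSC-CM, where 104 of 14304 genes did (0.727%, with 0.482% higher and 0.245% lower). The pair that stood out was thus ORC in one cell type and AG1 in the other, with opposite signs, and the PC pair was near 0 in both. MX1 in chondrocytes was at 1.14, 1.79 and 2.05 CPM with TLR-MSC-CM and at 1.06, 3.18 and 37.4 CPM with STING-MSC-CM. The difference of its effect, synoviocytes minus chondrocytes, was -3.75 on the log2 scale (unadjusted p = 0.00563). LGALS3BP, the interferon-stimulated gene with the smallest p in this test, was at 0.261, 0.543 and 1.27 CPM against 1.10, 1.48 and 105 CPM in chondrocytes, a difference of -5.78 (unadjusted p = 0.00101).

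Between synoviocytes and macrophages the adjusted p-value of 0 of 16584 genes (0.0%) and the unadjusted p-value of 748 (4.51%) lay under 0.05 by edgeR's quasi-likelihood test, 1 of the 748 being an interferon-stimulated gene. With the MSC donor within each cell type as a block, 33 genes passed an adjusted p-value of 0.05 by edgeR's quasi-likelihood test, with values from 0.00238 to 0.0494. In all 33 the difference between the media was larger in macrophages. The median size of the log2 fold change of these genes was 0.073 in synoviocytes and 0.59 in macrophages, and none exceeded 0.302 in synoviocytes. S100A6, a calcium-binding protein, was at 243, 239 and 246 CPM with TLR-MSC-CM and 252, 269 and 275 CPM with STING-MSC-CM in synoviocytes, and at 147, 200 and 166 CPM against 105, 118 and 113 CPM in macrophages. RAB7B, a GTPase of endosomal transport, was at 39.0, 38.1 and 40.6 CPM against 39.9, 39.5 and 41.2 CPM in synoviocytes and at 297, 364 and 333 CPM against 212, 207 and 256 CPM in macrophages. TGFBR1 had a log2 fold change of -0.16 in synoviocytes and of 0.418 in macrophages. Within macrophages, 966 of 15052 genes had an unadjusted p-value under 0.05 between the media (6.42%, with 2.64% higher and 3.77% lower), against 1.93% in synoviocytes. None of them was among the 63 interferon-stimulated genes tested, and the medians of that list by donor were 0.0228, 0.286 and 0.259.

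**Figure D5:**
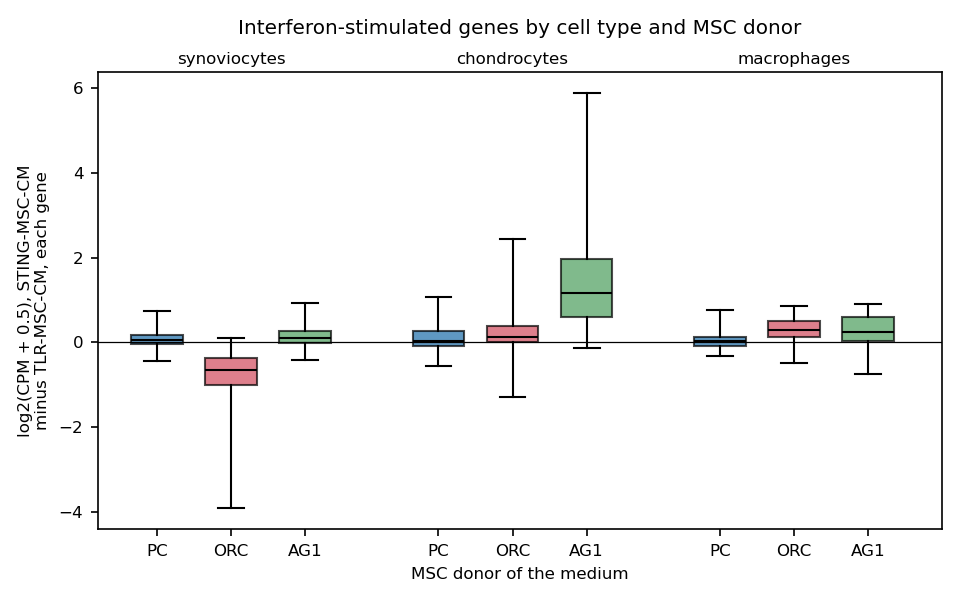
Difference in log2(CPM + 0.5) between STING-MSC-CM and TLR-MSC-CM (vertical axis) over the interferon-stimulated genes in each cell type by MSC donor (horizontal axis). Boxes show the median and quartiles over genes and whiskers the full range; the box lies below 0 for ORC in synoviocytes and well above 0 for AG1 in chondrocytes, and the PC boxes straddle 0.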

How the data were processed

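Reads were trimmed by the authors (Cutadapt 1.12), mapped with STAR to the horse genome build EquCab3.0 and assigned to genes with HTSeq 0.11.0; strand handling is not given in the sources used here. The deposited values are these counts, whole numbers without normalization for 20881 protein-coding genes, 3970 of them by Ensembl identifier only; counts of 1000000 or more carry 3 significant digits. Groups came from the sample labels, and the label field for the cell line was read as the MSC donor. Genes with at least 10 counts over the 9 synoviocyte libraries with MSC-CM were fitted with edgeR 4.0.16 in R 4.3.3 (TMM, robust quasi-likelihood test, prior count 0.125, no donor term) and p-values adjusted by Benjamini-Hochberg. Values per library are TMM-scaled CPM. In each group n = 3. With 3 libraries against 3, an exact permutation test cannot go below p = 0.1, and none was run. The pairing comes from that field; deviations from the group means of the same donor's TLR and STING libraries correlated across genes with r = 0.0369 for PC, 0.141 for ORC and 0.0641 for AG1, against -0.104 to 0.0546 between donors. Alternatives were DESeq2 1.42.0, its size factors, other filters and prior counts, the MSC donor as a block and leaving out libraries; a fit without robust estimation was chosen after seeing the data. The fits were tested on simulated data. The comparison, the gene lists, written from general knowledge, and the naming rule were chosen with earlier results of these data known. The rule took, of genes with a mean count of at least 50 and 1 direction in all donors, the 12 per direction with the smallest p; of genes past the study's thresholds, the 5 per direction with the highest counts; of each list, the 4 with the highest CPM and up to 4 with the smallest p under 0.05; genes the study's text names; and of each interaction test, the 3 with the smallest p. Other list members are named after their values were seen. Figures were drawn with matplotlib 3.10.9. 1 interferon-stimulated gene that the rule named is counted with its list and not reported here by itself. Coordinates and sequences were not used here.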

Additional observations from a re-analysis of the deposited data

Results flagged for a closer look

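For 15 genes named in the report, the difference in log2(CPM + 0.5) between STING-MSC-CM and TLR-MSC-CM had 1 sign in all 3 donor pairs of synoviocytes and the other sign in all 3 pairs of another cell type. All 3 pairs have the same direction in 11.5% (higher) and 11.4% (lower) of the genes tested in synoviocytes. These shares concern synoviocytes alone. RENBP, TCF19, CHSY1 and CCDC15 had been named for 1 direction in all synoviocyte pairs. IL18, TGFBR1 and PFKFB4 had been named for an unadjusted p-value under 0.05 in synoviocytes. S100A6 and RAB7B are in none of the gene lists and were named by the interaction tests or after their values were seen. Their p-values for the difference between cell types are therefore no separate evidence. How many of all genes have opposite signs in this way in another cell type was not counted, so the number of 15 has no background to be read against. The difference between the cell types was tested for each gene by the interaction term of edgeR's quasi-likelihood test, and none had an adjusted p-value under 0.05 without the donor block. With the block, S100A6, RAB7B and TGFBR1 did, against macrophages.

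Against macrophages, the log2 fold change of S100A6 was 0.1279 in synoviocytes and -0.61 in macrophages (adjusted p = 0.904 by edgeR's quasi-likelihood test without the block and 0.0206 with it). RAB7B had 0.0379 and -0.56 (0.904 and 0.035). TGFBR1 had -0.1559 and 0.42 (1.0 and 0.035). RENBP, an epimerase of amino sugar metabolism, had -0.4285 and 0.37, with an unadjusted p-value of 0.0152 for the difference. PLXNC1, with few counts in synoviocytes, had -0.7658 and 0.68, with an unadjusted p-value of 0.246 for the difference. TCF19 had 0.2278 and -0.28, with an unadjusted p-value of 0.0206. CHSY1 had -0.2095 and 0.24, with an unadjusted p-value of 0.0436. In synoviocytes IL18 had -0.5462, C1S -0.2159, SOD2 -0.211 and CXCL6 -0.0656. In macrophages the same genes had 0.33, 0.84, 0.48 and 0.43, and the unadjusted p-values of the 4 differences ran from 0.105 to 0.504.

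Against chondrocytes, PFKFB4 had a log2 fold change of 0.4854 in synoviocytes and -0.21 in chondrocytes, with an unadjusted p-value of 0.0129 for the difference. CCDC15 had 0.4227 and -0.09, EGR1 -0.377 and 0.21, and CCL2 -0.0963 and 0.10, with unadjusted p-values of 0.0752, 0.304 and 0.596.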

How the results depend on the processing

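The count of 0 genes with an adjusted p-value under 0.05 was the same in all 19 alternatives, and no named gene reached it in any of them. The 281 genes with an unadjusted p-value under 0.05 became 530 on the 6 libraries with the MSC donor as a replicate block and 455 without the 3 libraries of donor ORC, and 208 to 383 when 1 library was left out. The 70 genes past the study's thresholds became 45 with DESeq2, 2 with edgeR's own low-count filter, 46 and 34 with the replicate block on 9 and 6 libraries and 0 with a prior count of 2, and 44 to 96 when 1 library was left out, the lowest without the STING AG1 library. For the difference between synoviocytes and macrophages, the 0 genes with an adjusted p-value under 0.05 became 33 with the replicate block. Without the synoviocyte TLR ORC library they became 1, SCARF1 (named after its value was seen). Leaving out 1 other synoviocyte library of either medium left 0, and no macrophage library was left out. The block changed no other call by adjusted p-value. The causes of these changes were not tested. The median of the interferon-stimulated list ran from -0.41 without the TLR PC library to 0.10 without TLR ORC. Over 589 combinations of list and setting, 43 medians moved by more than the spread between donors, 39 of them on leaving out 1 library. Differences in genes near 3 counts were not detectable at this depth.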
